A study of Arabidopsis thaliana with 8 samples.

Results

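The genes described are 39 loci of Arabidopsis thaliana that perceive light, pass its signal on or keep daily time: 7 photoreceptor genes, 5 phytochrome-interacting factor (PIF) genes, 6 genes around the regulators HY5 and COP1, 18 clock genes and 3 genes of day-length response. They were chosen by locus identifier from a list made for this purpose, and a locus counts as listed when the count table holds a gene model under its identifier, a model being 1 isoform of the locus. Of the 39 loci, 22 were listed among the 17710 loci of the table. The study sequenced RNA of shoots from seedlings aged 7 days that were grown on upright agar plates with 16 h of light and 8 h of dark. It compared 4 genotypes with 2 libraries each: cae2-1 CA1-1, cae2-1, CA1-1 and Col, the Columbia accession. Only the count columns of the 2 Col libraries bear names that match a sample title, so the values below are those of Col shoots, and no genotype was compared with another. For Col the labels name no further allele or transgene, and they name no treatment in any group. The labels call the libraries replicates 1 and 2, and they do not give the hour of harvest or whether the replicates came from separate plates or days. Any p-value therefore measures these 2 libraries against counting noise and no condition.

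Phytochromes sense red and far-red light and cryptochromes sense blue light. In the light, phytochromes bring about the loss of PIF proteins, which promote elongation, and photoreceptors restrain the COP1-SPA ubiquitin ligase, which otherwise marks the transcription factor HY5 for destruction. The clock is a set of transcription factors that repress and activate each other in turn: CCA1 and LHY peak at dawn, pseudo-response regulators (PRR) follow through the day, and TOC1 and the evening complex of ELF3, ELF4 and LUX act around dusk and in the night. In leaves the clock and light signals meet at GI, FKF1 and CO, which set the level of the flowering signal FT.

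Many of the best known of these genes could not be measured, because the table has no row for them. The 17 loci that were not listed were the photoreceptor genes PHYA and CRY2, PIF1, PIF3, PIF5, PIF7, the HY5 homologue gene HYH, the clock genes CCA1, LHY, PRR3, PRR9, LUX, ZTL, LKP2, RVE8 and LNK1, and the flowering regulator gene CO. A missing row is not a low level. Having no row went with the number of transcripts that the RefSeq annotation of assembly TAIR10.1 gives a locus. All 12 members with 1 annotated transcript were listed, whereas of 15 members with 3 or more only PIF4 and LNK2 were. The 17 members without a row had a median of 4 annotated transcripts (range 2 to 9), and the 22 members with a row had a median of 1 (range 1 to 8). Over all 27444 nuclear protein-coding loci, 46.6% of those with 3 or more annotated transcripts were listed, as were 66.3% of those with 1. The annotation used for counting is not given in the sources used here, and the cause of the missing rows was not tested. A further locus, PHYD (AT4G16250), was listed at 0 in both libraries.

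**Figure D1:**
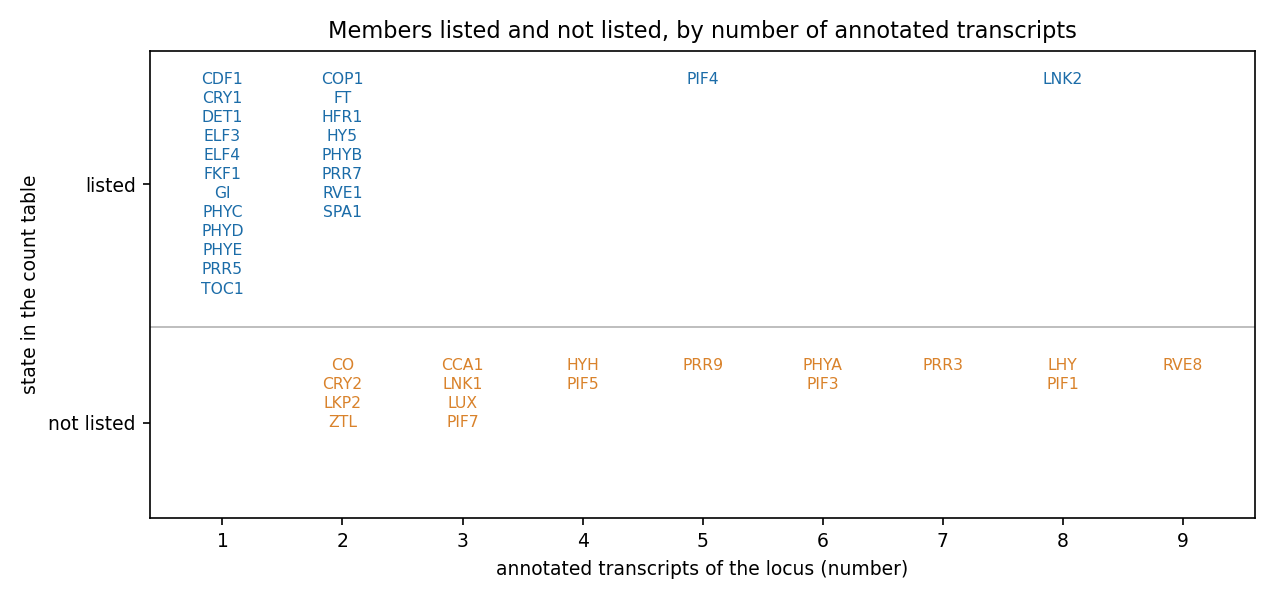
Each name is 1 of the 39 member loci, placed by its number of annotated transcripts in TAIR10.1 (horizontal axis) and by whether the count table has a row for it (upper, blue: listed; lower, orange: not listed). All 12 loci with 1 annotated transcript stand in the upper row, and PIF4 and LNK2 are the only listed loci with 3 or more.

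The listed models summed to 2571129 counts in replicate 1 and 2408685 counts in replicate 2. The header of each column bears a larger number in brackets, whose meaning is not given in the sources used here. Library sizes below are those of the listed models only. Levels are given in CPM, counts divided by the scaled library size and set to a common total, and 2 counts equalled 0.803 CPM in replicate 1 and 0.805 CPM in replicate 2. No model had a count of 1 in either library, so a listed 0 may stand for 1. The labelled tissue was visible in the counts: 5 of 6 green shoot marker genes were listed, and together they reached 46257 CPM in replicate 1, against 25491 CPM in replicate 2. Of 7 root marker genes all were listed, 3 of them at 0 in both libraries, and they summed to 41.7 CPM in replicate 1, against 33.8 CPM in replicate 2. Each of the other 4 had a mean above 5 CPM. CASP1 had 21.3 and 4.4 CPM in replicates 1 and 2, CASP2 8.4 and 6.8, SCR 7.6 and 12.1, and SHR 4.4 and 10.5. The 2 listed seed markers of 4 summed to 1.61 and 3.22 CPM in replicates 1 and 2. These are bulk shoots, in which fewer cells of a type and less RNA per cell cannot be told apart. The libraries differed widely, with an edgeR coefficient of variation of 0.411 between them. An exact binomial test, which asks whether a model's counts split between the libraries as the library sizes do, called 54.5% of the 10701 models at a mean of 5 CPM or more (adjusted p below 0.05).

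Among the listed member photoreceptors, which are 4 phytochrome genes and CRY1, the blue-light receptor gene CRY1 had the highest level. CRY1 (AT4G08920) had 197 counts in replicate 1 and 282 counts in replicate 2, that is 79.1 and 113 CPM. To set genes of different length side by side, CPM was divided by the length of the longest annotated transcript. On that scale, CRY1 stood at 26.2 and 37.6 CPM per kb in replicates 1 and 2, 3.0 and 5.0 times the level of PHYB. The listed phytochromes were lower. PHYB (AT2G18790), the main red-light receptor of light-grown plants, had 98 and 84 counts in replicates 1 and 2, or 8.75 and 7.52 CPM per kb. PHYC (AT5G35840), which in Arabidopsis acts together with PHYB, had 79 and 173 counts in replicates 1 and 2, or 8.34 and 18.3 CPM per kb. The order of these genes was not stable, since PHYB was 1.05 times PHYC in replicate 1 and 0.410 times PHYC in replicate 2.

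PHYE (AT4G18130), another phytochrome of light-grown plants, had 65 counts in replicate 1 and 8 in replicate 2. That is 26.1 CPM (95% Poisson interval 20.1 to 33.3) and 3.22 CPM (1.39 to 6.34), a log2 ratio of replicate 1 over replicate 2 of 2.84 (exact binomial test, adjusted p = 2.7e-11). PHYE had the widest gap of all members, and 0.262% of the tested models of the table had a ratio at least as large in either direction. PHYD, a close relative of PHYB, was listed at 0, which allows up to 1.90 CPM in replicate 1 or 1.91 in replicate 2. PHYB and PHYD are similar in sequence, and how reads shared by such genes, or by overlapping and antisense genes, were counted is not given. PHYC and CRY1 were higher in replicate 2 (log2 ratios −1.12 and −0.52), and 20.5% and 55.3% of the tested models differed by at least as much. For PHYB no difference beyond counting noise was found (0.22, 95% interval −0.22 to 0.66, exact binomial test, adjusted p = 0.44).

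**Figure D2:**
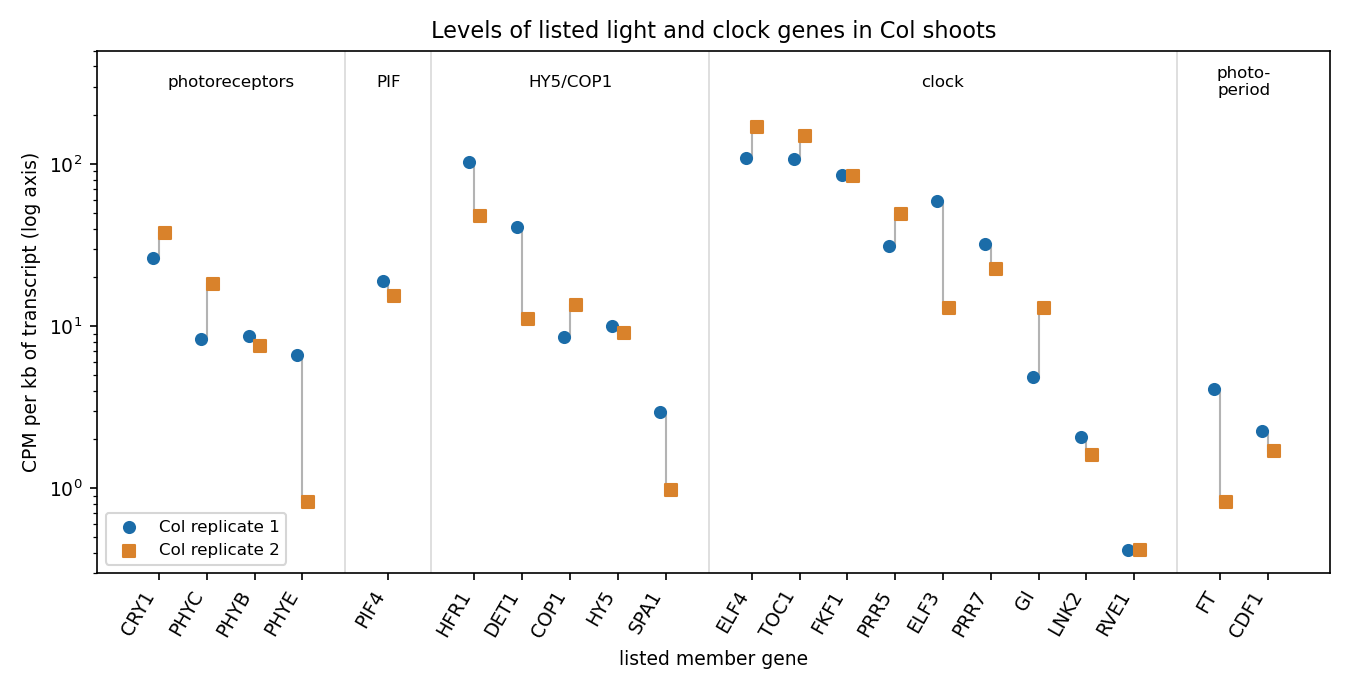
CPM per kb of transcript (log axis) of the 21 members with counts above 0, grouped by role, in Col replicate 1 (blue circles) and Col replicate 2 (orange squares); grey lines join the libraries. ELF4, TOC1, FKF1 and HFR1 lie highest, RVE1 lies lowest, and PHYE, ELF3, DET1, GI, FT and SPA1 have the longest lines.

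Of the 5 member PIF genes only PIF4 had a row. PIF4 (AT2G43010), a basic helix-loop-helix factor that promotes hypocotyl elongation and thermal growth, was listed with 2 models. Model 1 had 111 counts in replicate 1 and 89 in replicate 2 (44.6 and 35.8 CPM), and model 2 had 21 in replicate 1 and 29 in replicate 2. The share of model 1 was 84.1% in replicate 1 and 75.4% in replicate 2, with 95% Wilson intervals of 76.9 to 89.4 and of 66.9 to 82.3. For neither model was a difference beyond counting noise found (exact binomial test, adjusted p = 0.21 and 0.42).

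HFR1 (AT1G02340), an atypical helix-loop-helix protein that binds PIFs and blocks their action, was the highest of the genes around HY5 and COP1. HFR1 had 376 counts in replicate 1 and 173 counts in replicate 2, that is 151 and 69.6 CPM, and it was 2.16-fold higher in replicate 1 (exact binomial test, adjusted p = 4.3e-17). Per kb it exceeded model 1 of PIF4 5.42-fold in replicate 1 and 3.11-fold in replicate 2. Counts of PIF4 model 2 were left out of these ratios, which would be smaller with them. HY5 (AT5G11260), the bZIP factor that promotes photomorphogenesis, had few counts, 29 and 26 in replicates 1 and 2, or 11.6 and 10.5 CPM. Per kb its mean was 9.53 CPM, at the 57.5th percentile of listed models. A difference of HY5 was not detectable at this depth (log2 ratio 0.15, 95% interval −0.66 to 0.98).

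The genes whose products restrain light responses did not move together between the libraries. COP1 (AT2G32950), the ubiquitin ligase that targets HY5, had 53 counts in replicate 1 and 83 in replicate 2 and was higher in replicate 2 (log2 ratio −0.64, exact binomial test, adjusted p = 0.024). As many as 46.1% of the tested models differed by at least as much. SPA1 (AT2G46340), the partner of COP1, had 30 and 10 counts in replicates 1 and 2 and was higher in replicate 1 (log2 ratio 1.47). DET1 (AT4G10180), a further repressor of light responses that works with the CUL4-DDB1 ligase, had 198 and 53 counts in replicates 1 and 2, or 79.5 and 21.3 CPM. DET1 was 3.66-fold higher in replicate 1 (exact binomial test, adjusted p = 1.2e-19), and 4.63% of the tested models differed by as much. The level of DET1 per kb was 4.78 times that of COP1 in replicate 1 and 0.818 times in replicate 2. The ratio of HY5 to COP1 per kb was 1.17 in replicate 1 and 0.668 in replicate 2.

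Among the listed genes with a known daily peak, those with a morning peak were mostly low. Of 6 listed with an evening peak, 5 were among the 6 highest listed members per kb. The classes follow the known daily peak of each transcript: CCA1, LHY, RVE8, RVE1, LNK1, LNK2, PRR9, PRR7 and CDF1 count as morning genes, and PRR5, PRR3, TOC1, GI, ELF3, ELF4, LUX and FKF1 as evening genes. Of 9 morning genes 4 were listed, and 1 of them reached 5 CPM. Of 8 evening genes 6 were listed, and all 6 reached 5 CPM. The 5 morning and 2 evening genes without a row were not measured.

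PRR7 (AT5G02810), a repressor of CCA1 and LHY that peaks around midday, was the 1 morning gene with a substantial level. PRR7 had 257 counts in replicate 1 and 182 counts in replicate 2, that is 31.9 and 22.7 CPM per kb. LNK2 (AT3G54500), a coactivator that works with RVE8, had 13 and 10 counts in replicates 1 and 2 for model 2, the 1 listed model of a locus with 8 annotated transcripts. CDF1 (AT5G62430), a DOF factor that represses CO and FT in the morning, had 8 and 6 counts in replicates 1 and 2. RVE1 (AT5G17300), a MYB factor that links the clock to auxin synthesis, had 2 counts in each library, or 0.413 and 0.414 CPM per kb. The last 3 genes were thus at or below 2.25 CPM per kb in both libraries.

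TOC1 (AT5G61380), the evening repressor of CCA1 and LHY, had the most counts of all members, 748 in replicate 1 and 1043 in replicate 2, or 300.2 and 420 CPM. Per kb it reached 107 and 149 CPM in replicates 1 and 2, which placed its mean at the 94.4th percentile of listed models. ELF4 (AT2G40080), a small protein of the evening complex, had 169 and 261 counts in replicates 1 and 2. With a transcript of 619 nt it stood highest per kb, at 110 and 170 CPM. The ranges of ELF4 and TOC1 overlapped, so their order is not settled. Below them, the ranges of neighbours in the order of members overlapped except between TOC1 and FKF1, PHYB and PHYE, and on either side of RVE1. FKF1 (AT1G68050), a blue-light sensor and F-box protein that removes CDF1, stood at 85.9 and 84.3 CPM per kb in replicates 1 and 2. Its counts of 464 and 454 made it the most even of the tested members (log2 ratio 0.03, 95% interval −0.16 to 0.22).

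PRR5 (AT5G24470), the afternoon member of the PRR series, had 131 counts in replicate 1 and 205 counts in replicate 2, that is 31.4 and 49.2 CPM per kb. GI (AT1G22770), the partner with which FKF1 removes CDF1 late in the day, had 52 and 138 counts in replicates 1 and 2, or 4.85 and 12.9 CPM per kb. FKF1 exceeded GI per kb 17.7-fold in replicate 1 and 6.53-fold in replicate 2. ELF3 (AT2G25930), the scaffold of the evening complex and a thermosensor, ran the other way, with 403 counts in replicate 1 and 88 counts in replicate 2, that is 58.8 and 12.9 CPM per kb. The level of ELF4 per kb was therefore 1.86 times that of ELF3 in replicate 1 and 13.2 times in replicate 2.

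Set side by side, the 4 listed morning genes had a median of 2.16 CPM per kb in replicate 1 (range 0.413 to 31.9) and the 6 listed evening genes one of 72.4 (4.85 to 110). In replicate 2 the morning median was 1.64 CPM per kb (0.414 to 22.7) and the evening median 66.7 (12.9 to 170). The difference of the medians of log2 levels, morning minus evening, was −4.98 ± 0.14 (SD, n = 2). The classes overlapped through PRR7, which lay above GI in both libraries, above PRR5 in replicate 1 and above ELF3 in replicate 2. In the sums, which PRR7 leads on the morning side, morning genes reached 36.7 and evening genes 397 CPM per kb in replicate 1, and 26.4 and 478 CPM per kb in replicate 2. When members under 5 CPM were left out, PRR7 alone stood for the morning and the difference was −1.33. No test was run over genes, the hour of harvest is not in the labels, and the absent morning genes include CCA1, LHY and PRR9, so the figure holds for the listed models only. All 6 listed evening genes had 1 annotated transcript, as had CDF1, whereas PRR7 and RVE1 had 2 and LNK2 had 8. Reads of other isoforms may thus be missed on the morning side, and their part in the difference was not tested.

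The listed model of FT was low in these libraries, whose hour of harvest is not in the labels. The FT locus has 2 annotated transcripts, so reads of the other isoform may be missed, and CO had no row. FT (AT1G65480), the mobile flowering signal, had 10 counts in replicate 1 and 2 counts in replicate 2, that is 4.01 CPM (95% Poisson interval 1.93 to 7.38) and 0.805 CPM (0.0975 to 2.91). These intervals overlap, and FT and CDF1 were below the level at which models were tested.

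The counts carry locus names and no positions, so the regions before these genes were taken from the RefSeq annotation of TAIR10.1 and its genome, whereas the submitters' processing notes name TAIR10 as the build of the counts. Sequences were searched on both strands for 3 known motifs in the 1000 bases before each annotated gene start. The evening element, AAAATATCT, is bound by CCA1, LHY and RVE8, the CCA1 binding site, AAAAATCT, is a related motif, and the G-box, CACGTG, is bound by PIFs and HY5. An evening element was found in 6 of 8 evening genes (TOC1, PRR5, GI, ELF4, LUX and FKF1) and in 0 of 9 morning genes, against 7.24% of 27443 protein-coding genes. A G-box was found in 6 of 9 morning genes (CCA1, LHY, PRR7, PRR9, RVE8 and RVE1) and in 1 of 8 evening genes (LUX), against 14.8% of all. Within 300 bases of the start, 4 of the 8 evening genes had an evening element (2.79% of all genes) and 5 of the 9 morning genes a G-box (7.09%). The CCA1 binding site was found in 2 of 9 morning and 1 of 8 evening genes, against 21.1% of all. A match is a description of the letters and was not tested for binding or effect. Motifs and classes were both chosen from what is known of such genes, so these shares are no independent support for either. The stretches of the 5 listed evening genes with an evening element are shown, since they are also the evening genes TOC1, ELF4, FKF1, PRR5 and GI whose levels are given above. The capitals mark the motif, which reads AGATATTTT where it lies on the other strand, and each stretch runs 5′ to 3′ along the gene's strand with 30 bases on either side.
TOC1: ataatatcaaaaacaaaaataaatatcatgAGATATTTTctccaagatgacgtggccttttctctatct
ELF4: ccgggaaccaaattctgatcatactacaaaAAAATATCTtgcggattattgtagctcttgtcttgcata
FKF1: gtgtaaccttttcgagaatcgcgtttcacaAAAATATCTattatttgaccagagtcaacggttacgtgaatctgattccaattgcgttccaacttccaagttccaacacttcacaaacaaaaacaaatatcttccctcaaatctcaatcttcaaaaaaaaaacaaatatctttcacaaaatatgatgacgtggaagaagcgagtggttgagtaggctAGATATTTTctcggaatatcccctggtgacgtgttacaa
PRR5: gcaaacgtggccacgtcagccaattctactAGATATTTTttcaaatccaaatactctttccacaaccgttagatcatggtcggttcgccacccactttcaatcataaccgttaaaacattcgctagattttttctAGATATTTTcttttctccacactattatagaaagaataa
GI: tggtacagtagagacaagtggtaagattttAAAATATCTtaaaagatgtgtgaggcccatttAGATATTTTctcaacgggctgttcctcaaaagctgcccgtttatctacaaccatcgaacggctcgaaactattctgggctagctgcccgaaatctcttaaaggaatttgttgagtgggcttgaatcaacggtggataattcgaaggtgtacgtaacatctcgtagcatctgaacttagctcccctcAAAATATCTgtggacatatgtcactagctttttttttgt
The TOC1 stretch lies at chr5:24674782-24674850 (plus strand) and its motif starts 151 bases before the gene start. That of ELF4 is chr2:16735451-16735519 (minus strand), with the motif at 536 bases. The FKF1 stretch, chr1:25508236-25508491 (plus strand), holds motifs at 373 and 186 bases, 1 on each strand. The PRR5 stretch, chr5:8358695-8358868 (minus strand), holds motifs at 292 and 187 bases and a CCA1 binding site between them at 198 bases, close to the nearer one and not overlapping it. A further evening element of PRR5 lies at 716 bases. The GI stretch, chr1:8060912-8061198 (plus strand), holds 3 motifs at 809, 777 and 591 bases. ELF3 and PRR3, the other evening genes, had no evening element in the window.

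For comparison, the listed morning genes PRR7 and RVE1 and the photoreceptor gene PHYB had a G-box close to the start. Here the capitals mark the G-box.
PRR7: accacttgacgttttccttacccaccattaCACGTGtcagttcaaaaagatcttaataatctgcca
RVE1: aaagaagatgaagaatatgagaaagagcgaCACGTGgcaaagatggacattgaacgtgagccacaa
PHYB: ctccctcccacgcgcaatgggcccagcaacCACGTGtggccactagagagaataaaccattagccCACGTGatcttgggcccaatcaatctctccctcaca
They lie at chr5:642196-642261 (minus strand), chr5:5693068-5693133 (minus strand) and chr2:8139580-8139680 (plus strand). The G-box of PRR7 starts 201 bases before the gene start and that of RVE1 111 bases, and PHYB has 2, at 146 and 111 bases. PRR7 and RVE1, which share the motif, differed 77.3-fold in replicate 1 and 54.8-fold in replicate 2 in CPM per kb. These folds are uncertain, since RVE1 had only 2 counts in each library. Its 95% Poisson intervals were 0.097 to 2.90 CPM in replicate 1 and 0.097 to 2.91 CPM in replicate 2. A part of the motif in the levels was not tested. None of the 8 stretches overlaps another annotated gene.

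**Figure D3:**
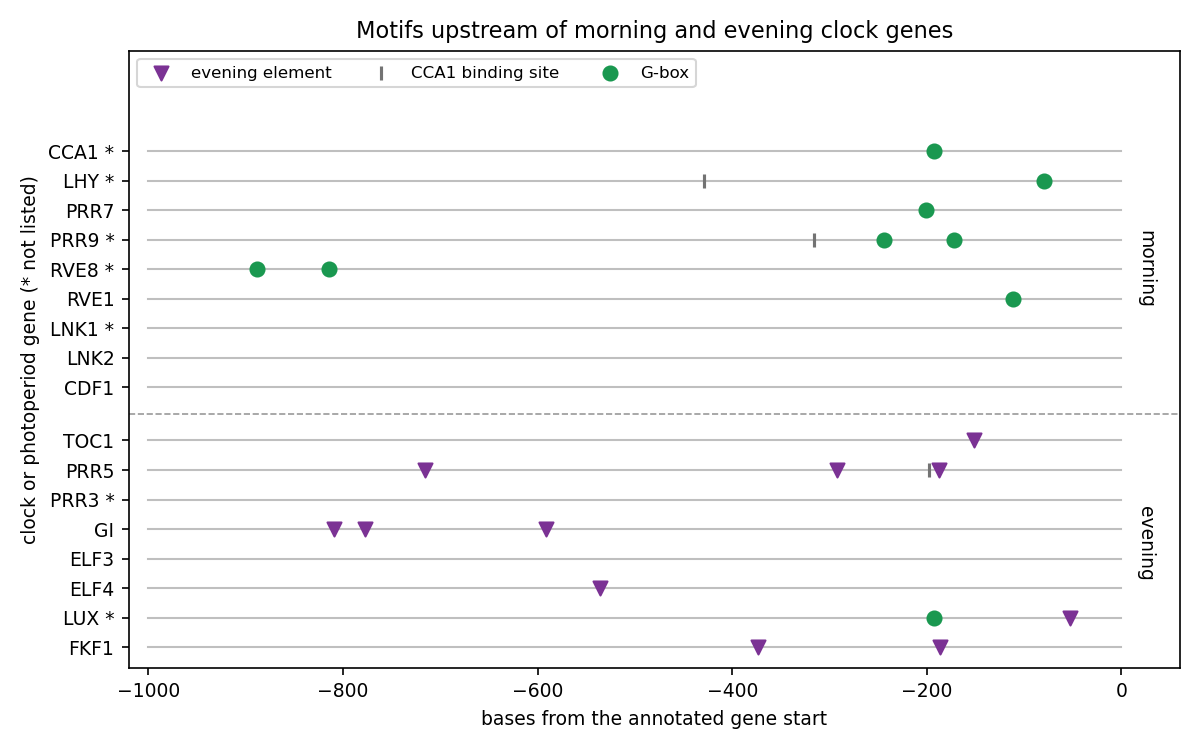
Positions of the evening element (purple triangles), the CCA1 binding site (grey bars) and the G-box (green circles) in the 1000 bases before the annotated start of 9 morning genes (above) and 8 evening genes (below); the horizontal axis is the distance from the start in bases, and asterisks mark loci not listed in the count table. Triangles occur on 6 of 8 evening lines and on no morning line, and circles on 6 of 9 morning lines and on the LUX line.

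Between the libraries, 17 members had a mean of at least 5 CPM and 13 of them differed beyond counting noise, 76.5% against 54.5% of all tested models. The share called was higher among abundant models: of those at 20 CPM or more 66.2% were called, as were 11 of 14 members. Of the 17 tested members 6 were called higher in replicate 1 (27.4% of all tested models) and 7 were called higher in replicate 2 (27.1%). A difference of at least 2-fold was called for 7 of 17 members, against 24.7% of all tested models. The median absolute log2 ratio was 0.64 among the members and 0.58 among all tested models.

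Evening genes did not move as a block. TOC1, PRR5, ELF4 and GI were higher in replicate 2, with log2 ratios of −0.48, −0.64, −0.63 and −1.39 (adjusted p from 2.0e-09 to 1.9e-04 for PRR5, ELF4 and GI and 1.8e-11 for TOC1, exact binomial test). Ratios at least as large in either direction were found for 58.2%, 45.7%, 46.9% and 12.6% of the tested models. The differences of TOC1, PRR5 and ELF4 were thus of a common size between these libraries. ELF3 was higher in replicate 1 (log2 ratio 2.18, exact binomial test, adjusted p = 2.0e-47), and FKF1 did not pass the test (adjusted p = 0.87). The morning gene PRR7 was higher in replicate 1 (log2 ratio 0.49, exact binomial test, adjusted p = 0.0012). For PRR7 that share of tested models was 57.4%, and for ELF3 it was 2.4%. The level of TOC1 per kb was 3.35 times that of PRR7 in replicate 1 and 6.59 times in replicate 2, and that of PRR5 was 0.982 times in replicate 1 and 2.17 times in replicate 2. The ratio of TOC1 to PRR5 per kb was 3.41 in replicate 1 and 3.04 in replicate 2. The green shoot markers, given above, were higher in replicate 1 as well, and the part of tissue make-up in these differences was not tested.

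**Figure D4:**
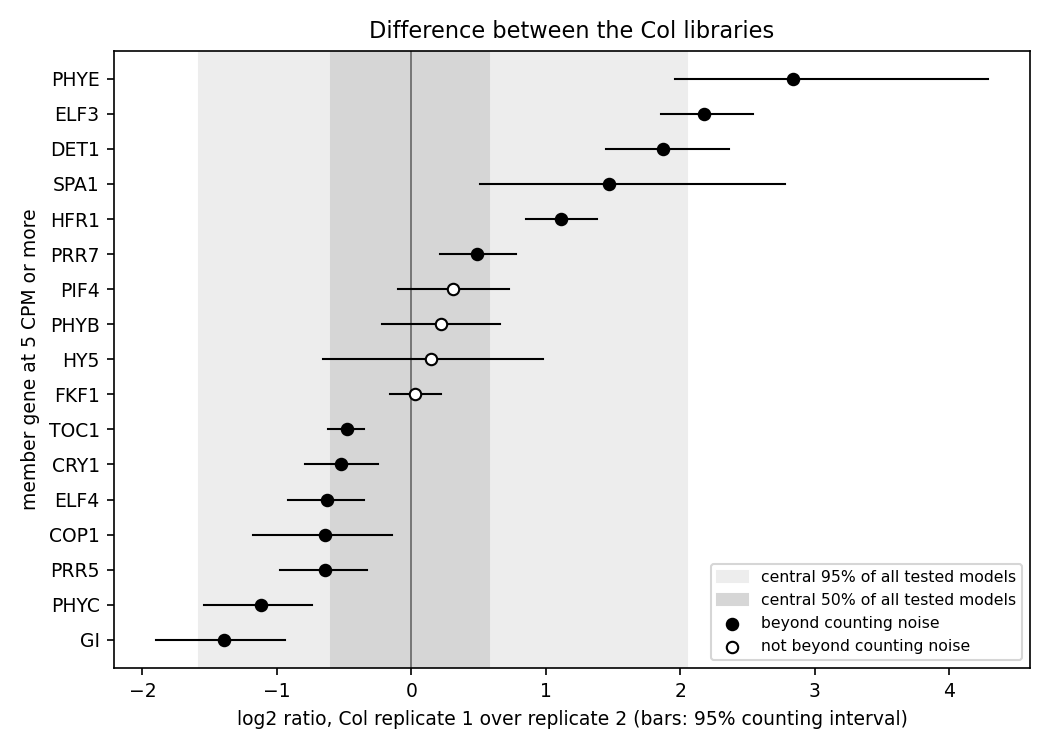
Log2 ratio of Col replicate 1 over Col replicate 2 for the 17 tested members, with 95% counting intervals as bars; filled points passed the exact binomial test and open points did not. The grey bands hold the central 50% (−0.60 to 0.58) and 95% (−1.58 to 2.05) of all 10701 tested models; PHYE and ELF3 lie outside the wider band.

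The remaining genes of these pathways were followed in 8 lists with 89 further loci (PIL1 and RUP2 stand in 2 lists each), of which 57 were listed and 38 were tested. Of these, 11 were higher in replicate 1, 13 were higher in replicate 2 and the other 14 did not pass the test. The share called was 63.2%, against 54.5% of all tested models, of which 27.4% were higher in replicate 1 and 27.1% were higher in replicate 2, and the median log2 ratio was −0.07. Targets of PIFs and shade were abundant: 7 of 8 were listed, 5 reached 100 CPM, and their sum was 1585 CPM in replicate 1, against 1049 CPM in replicate 2. Of the 7, 6 were higher in replicate 1 (27.4% of all tested models) and 0 were higher in replicate 2 (27.1%). The list median was 0.81, against −0.00 for all tested models. The 5 listed green shoot markers were likewise all higher in replicate 1, with a median of 0.83, and their part in this result was not tested. In replicates 1 and 2, the auxin response gene IAA19 had 457 and 260 CPM, the homeobox gene ATHB2 335 and 297 CPM, the helix-loop-helix gene PAR1 269 and 151 CPM and the wall enzyme gene XTR7 188 and 85.3 CPM. PIL1, a PIF-related gene that responds fast to shade, did not pass the test, with 222 counts in replicate 1 and 236 in replicate 2 (exact binomial test, adjusted p = 0.63). HFR1 and PIF4 are described above; HFR1 was higher in replicate 1 as these targets were, and PIF4 did not pass the test.

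The COP1-SPA and CUL4-DDB1 ligase list had 7 of 9 loci listed, and of 5 tested 3 were higher in replicate 2 (27.1% of all tested models) and 2 did not pass (median −1.02). In replicates 1 and 2, CUL4, the cullin of the ligase, had 40.9 and 85.7 CPM, the COP1 partner SPA2 16.9 and 34.6 CPM, and COP9, a signalosome subunit, 8.83 and 21.7 CPM. COP10, which assists the ligase, had 16.9 and 14.5 CPM in replicates 1 and 2 and did not pass. COP1 ran with the first 3 of these, whereas SPA1 and DET1 ran the other way. The list of other photoreceptors had 4 of 4 loci listed and 2 of them at 0 in both libraries, the phototropin genes PHOT1 and PHOT2, listed with models 2 and 4. These zeros are those of the listed models, which may miss reads of other isoforms, and need not hold for the genes. The UV-B receptor gene UVR8 had 1124 counts in replicate 1 and 181 counts in replicate 2, that is 451 and 72.8 CPM (log2 ratio 2.62), and CRY3, a cryptochrome of the organelles, had 17 counts in each.

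Of 16 partners of phytochromes and cryptochromes 10 were listed; of 8 tested 1 was higher in replicate 1 (27.4% of all tested models), 2 were higher in replicate 2 (27.1%) and 5 did not pass (median −0.42). In replicates 1 and 2, FHY1, which carries phytochrome A into the nucleus, had 34.9 and 58.7 CPM, and FAR1, a transcription factor of phytochrome A signalling, 24.1 and 51.9 CPM. UNE10, a PIF-related factor gene, had 34.1 and 15.3 CPM in replicates 1 and 2. Of 17 B-box protein genes, which encode zinc-finger regulators of light responses, 12 were listed and 7 tested, 3 higher in replicate 1 (27.4% of all tested models), 2 higher in replicate 2 (27.1%) and 2 not passing (median 0.26). In replicates 1 and 2, COL3 had 389 and 325 CPM, COL5 211 and 356 CPM, COL4 308 and 90.5 CPM and BBX20 73.4 and 19.7 CPM. All 4 targets of HY5 were listed and 2 were tested: the chalcone synthase gene CHS was higher in replicate 2 (18.1 CPM in replicate 1 and 33.4 in replicate 2), RUP2, a repressor of UV-B signalling, had 3.21 CPM in replicate 1 and 8.05 in replicate 2 and did not pass, ELIP1 had 2 counts in each library, and ELIP2 was listed at 0.

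Among 22 other clock genes only 8 were listed; of 5 tested 3 were higher in replicate 2 (27.1% of all tested models), 0 were higher in replicate 1 (27.4%) and 2 did not pass (median −0.46). The 3 were, with CPM in replicates 1 and 2, CHE, a TCP factor that represses CCA1, with 43.3 and 72.8 CPM, LWD1, a WD-repeat clock protein, with 42.5 and 58.7 CPM, and BOA, the close relative of LUX, with 31.3 and 47.1 CPM. In the list of photoperiod and flowering genes 7 of 11 were listed and 4 tested, 2 of them higher in replicate 2 (27.1% of all tested models), 0 higher in replicate 1 (27.4%) and 2 not passing (median −0.34). In replicates 1 and 2, TEM2, a repressor of FT, had 261 and 372 CPM, and CDF3, a relative of CDF1, had 10.8 and 22.5 CPM. FT was below the tested level in these libraries, and whether TEM2 had a part in this was not tested.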

How the data were processed

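The authors deposited counts of reads per gene model, raw according to the column headers. The submitters' processing notes name TAIR10 as genome build. For the aligner, counter, strand setting and filters, methods were not given in the sources used here. The labels hold 8 samples. Only the 2 Col columns match a sample title. The other 6 count columns match none, and they were not used. The members, gene lists, classes, tests and motifs were chosen with earlier results of these data known. Scaling used TMM factors from edgeR 4.0.16 in R 4.3.3, and levels are CPM. Where a locus had several models, its most abundant one was used. Each model at a mean of 5 CPM or more was tested with an exact binomial test (two-sided, as the doubled smaller tail, scipy 1.17.1), adjusted by Benjamini-Hochberg over all 10701 models. Log2 ratios had 0.5 CPM added. Intervals cover counting error only, since reads lacking molecular identifiers may be copies of one another. A listed 0 was read as at most 1 count, which allows 4.74 counts (one-sided 95% Poisson limit). Lengths, transcript numbers, names and upstream sequences came from the RefSeq annotation of TAIR10.1, matched by locus for 39 of 39 members and 17825 of 17921 models. All members are accounted for. From each further list, up to 3 of the most abundant genes and up to 3 of those called at 2-fold or more were named. The binomial test and the log2 ratio were tried on simulated counts with counting noise only, whereas the spread between these libraries was wider. The listing, morning and evening, and motif steps were not tried on simulated data. Alternatives were other scaling, filters, lengths and added constants.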

Additional observations from a re-analysis of the deposited data

How the results depend on the processing

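For the 17 tested members, 98 of 99 log2 ratios recomputed under 6 alternatives (RLE factors, no scaling, a filter at 1 or 20 CPM, organelle models left out, models of a locus summed) kept their direction and their side of the threshold. The exception was FKF1, which did not pass the test in either case and stood at 0.03 with TMM and at −0.06 with no scaling. The number of members called was 11 with the filter at 20 CPM, where 14 were tested, and 13 otherwise. The number of models called ranged from 4632 to 5961. Leaving TMM out shifted every log2 ratio by −0.09. The morning minus evening difference of −4.98 moved to −4.60 with no length correction, −5.40 without PRR5 and PRR7, −4.81 with 1 CPM added and −1.33 without members under 5 CPM, where 1 morning gene was left against 6 evening genes. By library it ranged from −5.08 to −4.88. No paired analysis was possible because Col is 1 group without pairs and columns of other genotypes match no sample. Depth limits the genes with few counts (RVE1, FT, CDF1, LNK2 and HY5), whose differences were not detectable or not tested. A count is that of 1 listed model, which may miss reads of other isoforms.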

Other observations

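Motifs outside the morning and evening classes were counted in the same way. Of the 22 members in neither class, 1 had an evening element in the 1000 bases before the gene start (PIF7, at 820 bases) and 5 had a G-box, against 7.24% and 14.8% of all protein-coding genes. PHYB and PHYD were the 2 of 7 photoreceptor genes with a G-box, and both had 2 of them, while PHYB had 98 and 84 counts in replicates 1 and 2 and PHYD was listed at 0. Of the 8 targets of PIFs and shade, 3 had a G-box (IAA19, YUC8 and PAR1), and YUC8 also had an evening element at 803 bases. PIF4, HY5, COP1 and DET1 had none of the 3 motifs in the window. The part of these motifs in the levels was not tested.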
